A study of Mus musculus with 6 samples.

Results

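The genes described here encode the machinery that copies chromosomes: 51 mouse genes for origin licensing, the replicative helicase, the DNA polymerases, the sliding clamp and its loader, single-strand binding and lagging-strand joining, chromatin assembly, and fork protection or S-phase regulation. They were taken by symbol from a deposited table of 41128 genes, and all 51 were found in it. RNA came from hematopoietic stem cells of the long-term repopulating kind, marrow cells able to rebuild blood after transplantation. C57BL mice received DMSO, the vehicle, or YH250 at 2 mg per kg under the skin. YH250 is a small molecule that the submitters describe as an antagonist of p300 and catenin. Marrow was taken 16 h later, and cells were sorted as Lin-, Sca1+, c-Kit+, CD41-, CD48- and CD150+. There were 3 libraries of polyadenylated RNA per group, numbered 1 to 3 by the labels, which do not say whether a library came from its own animal or from pooled animals, nor give the age of the mice.

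Before S phase, the origin recognition complex with Cdc6 and Cdt1 loads the ring-shaped Mcm2 to Mcm7 helicase onto DNA, a step called licensing. The ring is activated when Cdc45 and the GINS complex join it. Primase and the polymerases alpha, delta and epsilon then copy both strands. Replication factor C loads the Pcna ring, a sliding clamp for polymerases delta and epsilon. Long-term stem cells are known to be mostly quiescent, and transcripts of many of these genes are known to be more abundant in cells that have entered the cycle, largely through E2F transcription factors.

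Values are RPM, reads scaled to a common total in each library. The lowest value of any of the genes was 3.94 RPM (Orc1 in YH250 2) and the highest 413.7 RPM (Pcna in DMSO 3). The fewest reads behind a value were about 87 (Orc1 in DMSO 3). All 51 passed the minimum of a mean of 1 RPM over the 6 libraries. The libraries differed strongly by number. Slamf1, which encodes the required CD150, was at 31.5 to 35.5 RPM in the libraries numbered 1 and at 0.515 to 4.69 RPM in the other 4, and Cd48, whose product the sort was to exclude, reached 252 and 258 RPM in those numbered 3. A list of 12 stem cell identity genes summed, in DMSO and YH250, to 1423.5 and 1147 RPM at number 1, to 1161 and 1097 RPM at number 2 and to 411 and 338 RPM at number 3. A list of 8 multipotent and lymphoid-primed progenitor genes went the other way, from 238 and 277 RPM at number 1 to 2187 and 2070 RPM at number 3. In bulk RNA, fewer cells of a type and less RNA per cell cannot be told apart.

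Nearly all replication genes had a higher mean log2 value after YH250, by modest amounts, and none passed the test. The mean log2(RPM + 1) was higher in YH250 for 50 of the 51 genes (98%, against 51.7% of the 13597 genes tested), with Dscc1 the exception. The median log2 difference was 0.34, against 0.02 over all tested genes, and single genes ranged from -0.33 to 1.54. In 13 genes (25.5%) all 3 YH250 libraries lay above all 3 DMSO libraries, against 3.79% of all genes. None lay wholly below, against 3.68%. At each of the 3 numbers the YH250 library was above the DMSO library for 29 genes (56.9%, against 16.1%). The 51 values come from the same 6 libraries and are not independent observations.

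With limma, 0 of 51 genes passed an adjusted p of 0.05 (0% of all genes passed), and each had an adjusted p of 0.999. At an unadjusted p under 0.05 there were 7 genes, all higher in YH250 (13.7%, against 0.934% of all genes higher and 0.765% lower): Tcf19, Lig1, Pole, Mcm5, Prim2, Rfc5 and Orc5. With the replicate number as a block there were 16, again all higher (31.4%, against 4.46% higher and 2.99% lower), and the adjusted p was at least 0.66. DMSO 3 bore most on these counts. Without it, 20 genes had an unadjusted p under 0.05 (39.2%, against 3.61% of all genes higher in YH250), and leaving out any other library gave 3 or 4 (against 0.470% to 1.44%). Without DMSO 3, 32 genes had groups that did not overlap (62.7%, against 13.6%), and leaving out any other library gave 14 to 18 (27.5% to 35.3%, against 6.51% to 9.53%). Without YH250 3, 41 of the 51 were higher in mean.

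**Figure D1:**
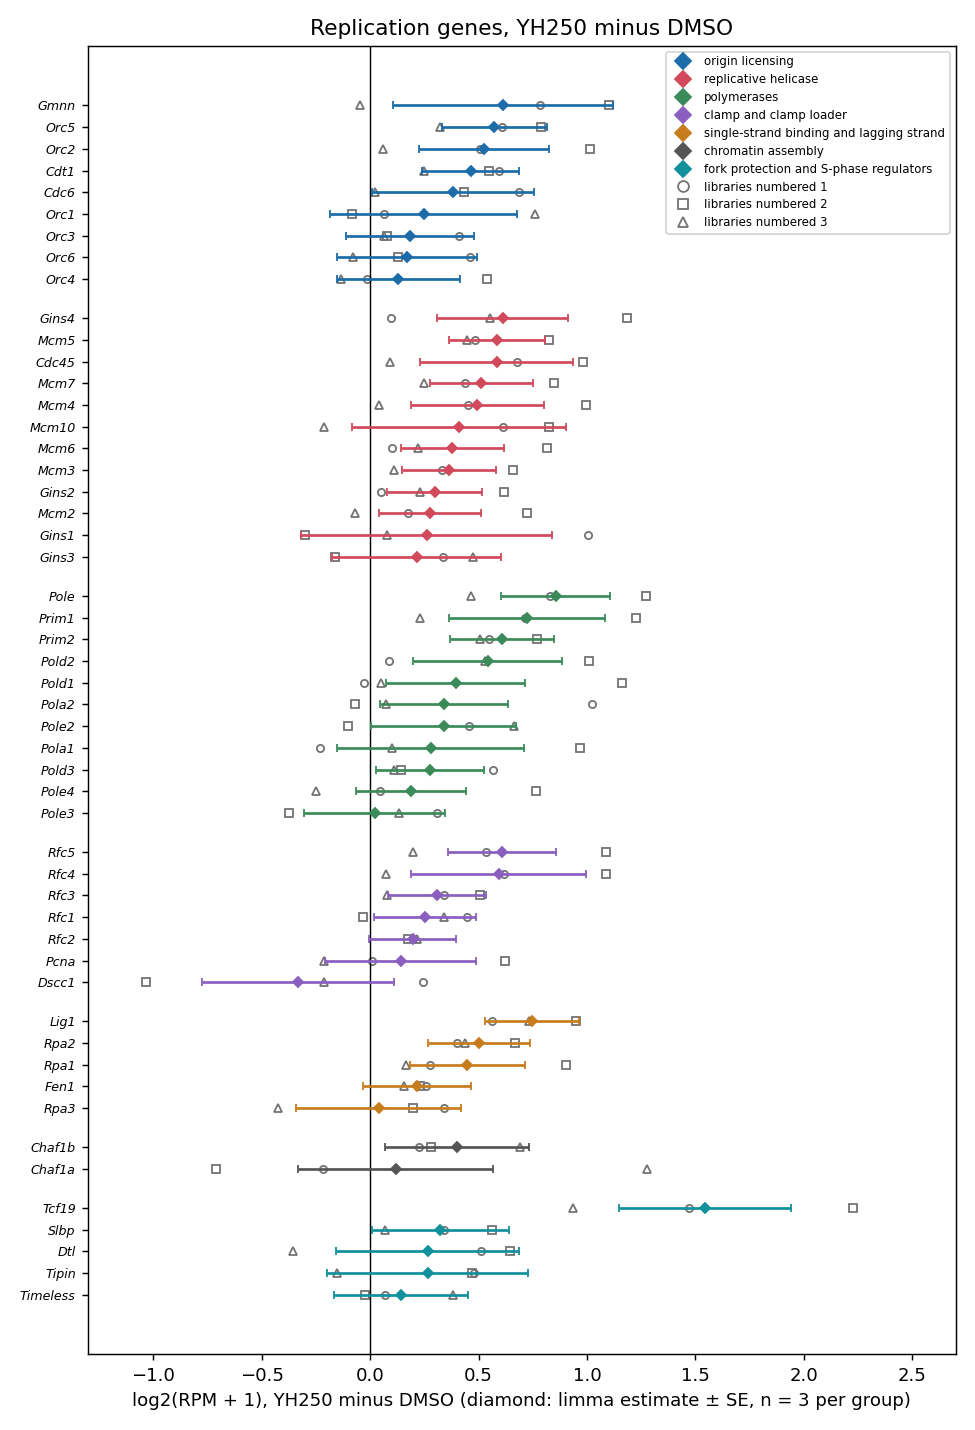
Difference between YH250 and DMSO on the log2(RPM + 1) scale for each of the 51 genes (x axis), grouped by role (y axis). Filled diamonds with bars are limma estimates ± SE, 3 libraries per group. Open symbols are the YH250 minus DMSO differences at numbers 1, 2 and 3. Of the diamonds, 50 lie to the right of 0, Tcf19 the farthest at 1.54, and Dscc1 lies at -0.33.

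The size of the difference varied by number. The median over the 51 genes was 0.41 at number 1, 0.64 at number 2 and 0.13 at number 3, with 47, 41 and 40 genes higher in the YH250 library. Over all 13597 tested genes the medians were 0.06, 0.06 and -0.06, with 7459, 7268 and 6021 genes higher. There is 1 pair of libraries at each number, so whether the numbers differ in this could not be tested. Markers of cycling cells outside replication leaned the same way, with 12 of 15 higher in mean and a median of 0.24, but their median SE was 0.48. By number, 6 of the 15 passed as higher at number 3 than at number 1 (40%, against 5.60% of all genes). Between numbers 3 and 2, 9 passed as higher (60%, against 3.67%). Of the 12 stem cell identity genes 2 were higher, with a median of -0.31. A list of stromal and endothelial genes summed to 428 RPM in YH250 2, against 113 to 131 RPM in the other 5 libraries; without that library, 51 of 51 replication genes were higher in mean. Of the genes of other cells that passed the minimum, B cell genes were higher in mean for 7 of 7 (median 0.65) and mast cell, basophil and eosinophil genes for 4 of 4 (median 1.18). Progenitor genes were higher for 6 of 8 (median 0.35) and T and NK cell genes for 7 of 10 (median 0.46), the last with sums of 54.3 to 453 RPM in DMSO, against 119 to 407 RPM in YH250. Erythroid genes were higher for 2 of 6 (median -0.45) and megakaryocyte genes for 2 of 5 (median -0.15). Granulocyte and monocyte genes were higher for 7 of 10 (median 0.26), and stromal and endothelial genes for 8 of 9 (median 0.29). The SEs in these lists of other cells were large. The median SE of a gene's log2 difference was 1.11 for B cell genes and 1.16 for mast cell, basophil and eosinophil genes. Over all these lists it ran from 0.62 (stromal and endothelial) to 1.32 (progenitor). The part of these other cell states in the result was not tested.

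Letters of the E2F binding site were found in a part of the promoters. RefSeq windows (GRCm38.p6, 250 bases before to 50 after a start) were available for 41 of the 51 genes, 50 windows in all, some of them overlapping windows of the same gene. The letters TTTCCCGC, TTTGGCGC, TTTCGCGC or TTTGCCGC, on either strand, occurred in 18 of the 50 windows (36%), in 17 of the 41 genes. They occurred in 2.265% of all 32851 windows and in 3.90% of the windows of tested genes. Of the genes whose groups did not overlap, Cdt1, Lig1, Mcm3, Mcm5 and Rfc3 held them and Orc5, Rfc5, Rpa2 and Tcf19 did not, which says only that these letters are not in those windows. The 17 genes with the letters had a median log2 difference between YH250 and DMSO of 0.34, and the 24 without had 0.37. CCAAT, the letters of the NF-Y box, occurred in 54% of the members' windows, 37.4% of all and 38.0% of those of tested genes. The cell cycle homology letters TTTGAA or TTCGAA occurred in 14% of the members' windows, 19.2% of all and 14.5% of those of tested genes. Median GC content was 62.7% in the members' windows and 60.3% in those of tested genes. The stretches below show E2F letters upstream of the annotated genes of 5 members, 60 bases each, on the gene's own strand, with the matching letters in capitals. In Mcm5, a ring subunit, a match on each strand overlap in a single run (chr8:75109332-75109391, plus strand).
Mcm5: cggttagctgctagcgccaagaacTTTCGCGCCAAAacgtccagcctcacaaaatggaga
The others are Mcm6, also a ring subunit (chr1:128359719-128359778, minus strand), the origin complex gene Orc3 (chr4:34614950-34615009, minus strand), the polymerase alpha gene Pola1 (chrX:93632260-93632319, minus strand) and Dtl, which targets Cdt1 for destruction (chr1:191575545-191575604, minus strand).
Mcm6: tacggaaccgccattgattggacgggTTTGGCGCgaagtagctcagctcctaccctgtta
Orc3: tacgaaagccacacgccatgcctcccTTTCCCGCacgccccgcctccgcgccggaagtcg
Pola1: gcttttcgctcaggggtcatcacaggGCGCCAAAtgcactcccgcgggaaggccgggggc
Dtl: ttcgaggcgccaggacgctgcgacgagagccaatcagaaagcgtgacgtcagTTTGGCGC
Of these 5 genes, Mcm5 alone had groups that did not overlap, and Dtl, Orc3 and Pola1 differed mainly between numbers, as described further on.

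Among the licensing genes all 9 were higher in mean, with a median log2 difference of 0.38. The origin recognition complex marks the sites where replication can begin. Of its subunits, Orc5 measured 30.7, 30.5 and 42.4 RPM in DMSO 1, 2 and 3, against 47.3, 53.4 and 53.2 RPM in YH250 1, 2 and 3. The groups did not overlap, and the log2 difference was 0.57 ± 0.24 (SE; unadjusted p = 0.0424). Orc4 overlapped fully, with 56.7, 61.5 and 92.2 RPM in DMSO, against 56.0, 89.8 and 83.9 RPM in YH250 (0.13 ± 0.28). The loading factor Cdt1 had 37.3, 43.7 and 47.3 RPM in DMSO, against 56.9, 64.4 and 56.3 RPM in YH250, without overlap (0.46 ± 0.22, unadjusted p = 0.0679). Cdc6, the ATPase that works with Cdt1, had 16.8, 15.1 and 34.5 RPM in DMSO, against 27.6, 20.8 and 35.0 RPM in YH250. Its values in both libraries numbered 3 were above those of the other 4. Gmnn encodes geminin, the inhibitor that binds Cdt1 to prevent a second licensing. It had 28.2, 26.4 and 101 RPM in DMSO, against 49.2, 57.7 and 98.2 RPM in YH250. It was thus higher in YH250 at numbers 1 and 2, but as high in DMSO 3 as in YH250 3 (0.61 ± 0.51).

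All 12 helicase genes were higher in mean, with a median of 0.39 (0.44 for Mcm2 to Mcm7), and 4 had groups that did not overlap: Mcm3, Mcm5, Gins2 and Gins4. Mcm5 had 72.3, 58.4 and 82.1 RPM in DMSO, against 101, 104 and 112 RPM in YH250 (0.59 ± 0.22, unadjusted p = 0.0263). Mcm3 had 136, 119 and 167 RPM in DMSO, against 171, 188 and 180.2 RPM in YH250 (0.37 ± 0.22). Mcm7 missed separation narrowly, with 107, 117 and 145.6 RPM in DMSO, against 145.2, 212 and 173 RPM in YH250 (0.51 ± 0.24, unadjusted p = 0.0584). Under each of the 3 other scalings its groups did not overlap. The other 3 ring subunits overlapped between groups. Mcm2 had 90.1, 64.7 and 99.4 RPM in DMSO, against 102, 108 and 94.7 RPM in YH250 (0.28 ± 0.23; 0.097 without DMSO 2). Mcm4 had 67.4, 58.8 and 124 RPM in DMSO, against 92.5, 118 and 127 RPM in YH250 (0.49 ± 0.31). Mcm6 had 199, 185 and 244 RPM in DMSO, against 213, 326 and 285 RPM in YH250 (0.38 ± 0.24). The lowest library was DMSO 2 for 5 of the 6 genes and DMSO 1 for Mcm7.

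The GINS subunits and Mcm10 turn the loaded ring into an active helicase. Gins4 had 33.4, 19.7 and 35.6 RPM in DMSO, against 35.7, 46.1 and 52.7 RPM in YH250 (0.61 ± 0.30). Gins2 had 83.7, 60.5 and 77.3 RPM in DMSO, against 86.7, 93.3 and 90.7 RPM in YH250 (0.30 ± 0.22). However, 67.3% of its exon bases are shared with other genes, with Gse1 on the other strand as the largest partner. The use of strand in counting is not stated. In 16 members over 3% of the exon bases are shared with other genes, among them Mcm7 (12.6%), Rfc5 (10.7%) and Lig1 (5.79%). The separation of Gins2, Gins4 and Mcm3 was lost under at least 1 other scaling of the libraries, whereas the other 10 genes stayed apart under all 3. Gins1 had 8.06, 12.1 and 32.6 RPM in DMSO, against 17.2, 9.63 and 34.5 RPM in YH250 (0.26 ± 0.58). Mcm10 had 7.31, 5.59 and 20.4 RPM in DMSO, against 11.7, 10.7 and 17.5 RPM in YH250 (0.41 ± 0.49). Without DMSO 2 the difference of Mcm10 was 0.069, and without DMSO 3 it was 0.92. Both genes were highest in the libraries numbered 3 of both groups. Gins3 had 7.67, 13.0 and 13.2 RPM in DMSO, against 9.93, 11.5 and 18.7 RPM in YH250, with overlapping groups (0.21 ± 0.39).

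**Figure D2:**
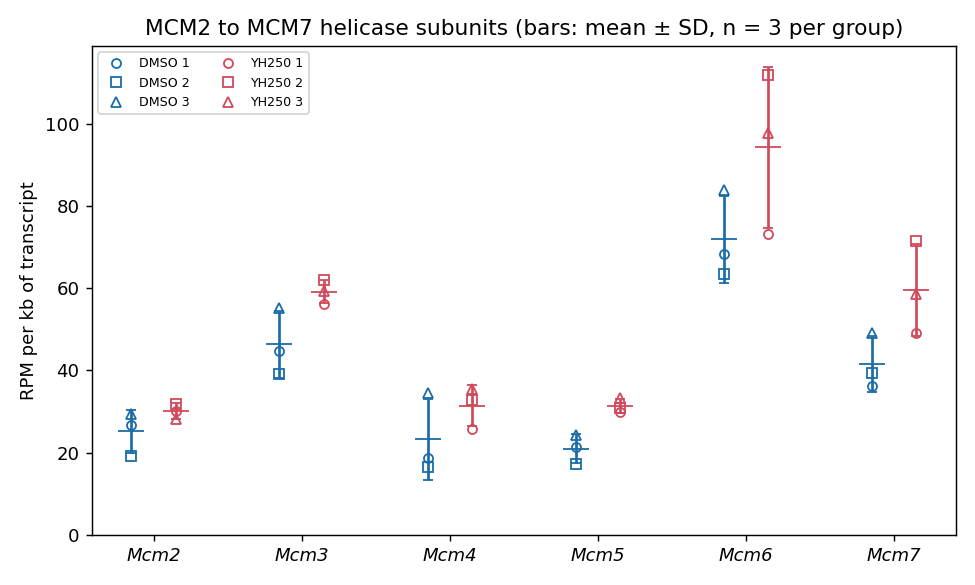
RPM per kb of transcript (y axis, from 0) for the 6 subunits of the helicase ring (x axis). Points are libraries, circle, square and triangle for numbers 1, 2 and 3, and bars are mean ± SD of 3 libraries per group. Mcm6 is the highest in every library, and Mcm3 and Mcm5 are the 2 subunits whose groups do not overlap.

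All 11 polymerase genes were higher in mean, with a median of 0.34. Pole encodes the catalytic subunit of polymerase epsilon, which copies the leading strand. It had 25.5, 24.0 and 29.8 RPM in DMSO, against 46.0, 59.3 and 41.5 RPM in YH250, 1.85 times as much in mean (0.86 ± 0.25, unadjusted p = 0.00799). Its small partner Pole3 had 48.6, 38.2 and 54.1 RPM in DMSO, against 60.3, 29.2 and 59.4 RPM in YH250 (0.02 ± 0.32), and the difference was below 0 under 2 of the 3 other scalings. Prim2, the large subunit of primase, was separated between groups, with 31.9, 31.7 and 41.4 RPM in DMSO, against 47.1, 54.8 and 59.2 RPM in YH250 (0.61 ± 0.24, unadjusted p = 0.0316). The medians of the complexes were 0.47 for polymerase alpha with primase (4 genes), 0.39 for polymerase delta (3 genes) and 0.26 for polymerase epsilon (4 genes).

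Of the 7 clamp and clamp loader genes 6 were higher in mean, with a median of 0.25. Pcna, the sliding clamp, had 224, 163 and 414 RPM in DMSO, against 226, 251 and 357 RPM in YH250 (0.14 ± 0.35), with the libraries numbered 3 highest in both groups. The loader subunit Rfc5 had 56.7, 49.1 and 79.1 RPM in DMSO, against 82.7, 105.5 and 90.8 RPM in YH250, without overlap (0.61 ± 0.25, unadjusted p = 0.0379). Rfc3 was barely separated, with 39.9, 40.5 and 50.73 RPM in DMSO, against 50.78, 57.9 and 53.7 RPM in YH250 (0.31 ± 0.23). Rfc4 had 43.6, 38.5 and 110.4 RPM in DMSO, against 67.5, 82.8 and 116 RPM in YH250 (0.59 ± 0.40), again with number 3 highest. Of its exon bases 12.6% are shared with other genes, with the abundant Eif4a2 (404 RPM) on the other strand as the largest partner. Dscc1, part of the alternative loader that acts in sister chromatid cohesion, had 14.3, 14.6 and 22.9 RPM in DMSO, against 17.1, 6.62 and 19.7 RPM in YH250. Its difference of -0.33 ± 0.44 was below 0 through YH250 2, and it was 0.11 without that library.

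Single-strand binding and lagging-strand genes were higher in mean on the log2 scale for 5 of 5, with a median of 0.45. Lig1, the ligase that seals Okazaki fragments, had 60.4, 52.4 and 66.2 RPM in DMSO, against 89.7, 102 and 111 RPM in YH250 (0.75 ± 0.22, unadjusted p = 0.00731). Every YH250 library lay well above every DMSO library. Replication protein A coats exposed single strands. Its middle subunit Rpa2 was separated, with 56.7, 51.1 and 72.3 RPM in DMSO, against 75.1, 81.7 and 98.2 RPM in YH250 (0.50 ± 0.23, unadjusted p = 0.0619). The smallest subunit, Rpa3, was not, with 42.4, 56.8 and 119 RPM in DMSO, against 53.9, 65.3 and 88.8 RPM in YH250 (0.04 ± 0.38; the sign turned under 2 of the 3 other scalings). The range of the flap endonuclease Fen1 was 35.1 to 50.0 RPM in DMSO, against 42.2 to 55.9 RPM in YH250. However, 84.2% of its exon bases are shared with other genes, the largest partner lying on the other strand.

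Chromatin assembly factor 1 places new histones behind the fork. Its subunit Chaf1b had 67.8, 54.0 and 30.3 RPM in DMSO, against 79.5, 65.8 and 49.5 RPM in YH250, higher in YH250 at each number, with the groups overlapping (0.40 ± 0.33; 0.074 without DMSO 3). Chaf1a had 16.4, 13.1 and 6.92 RPM in DMSO, against 13.98, 7.60 and 18.2 RPM in YH250 (0.12 ± 0.45). It was lower in YH250 at numbers 1 and 2 and higher at number 3. Of its exon bases 52.5% are shared with other genes, with Ubxn6 on the other strand as the largest partner.

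Among the fork protection and S-phase genes 5 of 5 were higher in mean, with a median of 0.27. Tcf19, a gene whose transcript is known to be induced at the start of S phase, had the largest difference of the 51. DMSO 1, 2 and 3 gave 6.02, 7.06 and 12.6 RPM, and YH250 1, 2 and 3 gave 18.5, 36.7 and 25.0 RPM, 3.12 times as much in mean (1.54 ± 0.40, unadjusted p = 0.00367). The groups did not overlap, and the difference was 1.47, 2.22 and 0.94 at numbers 1, 2 and 3. Tcf19 lies on the minus strand at chr17:35512734-35516824 (mm10), and none of its exon bases are shared with another gene. The fork protection gene Tipin had 79.9, 59.1 and 204 RPM in DMSO, against 112, 82.3 and 183 RPM in YH250 (0.27 ± 0.46), the libraries numbered 3 standing above the rest. Its partner Timeless had 28.0, 22.5 and 32.4 RPM in DMSO, against 29.4, 22.1 and 42.4 RPM in YH250 (0.14 ± 0.31), with overlapping groups.

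**Figure D3:**
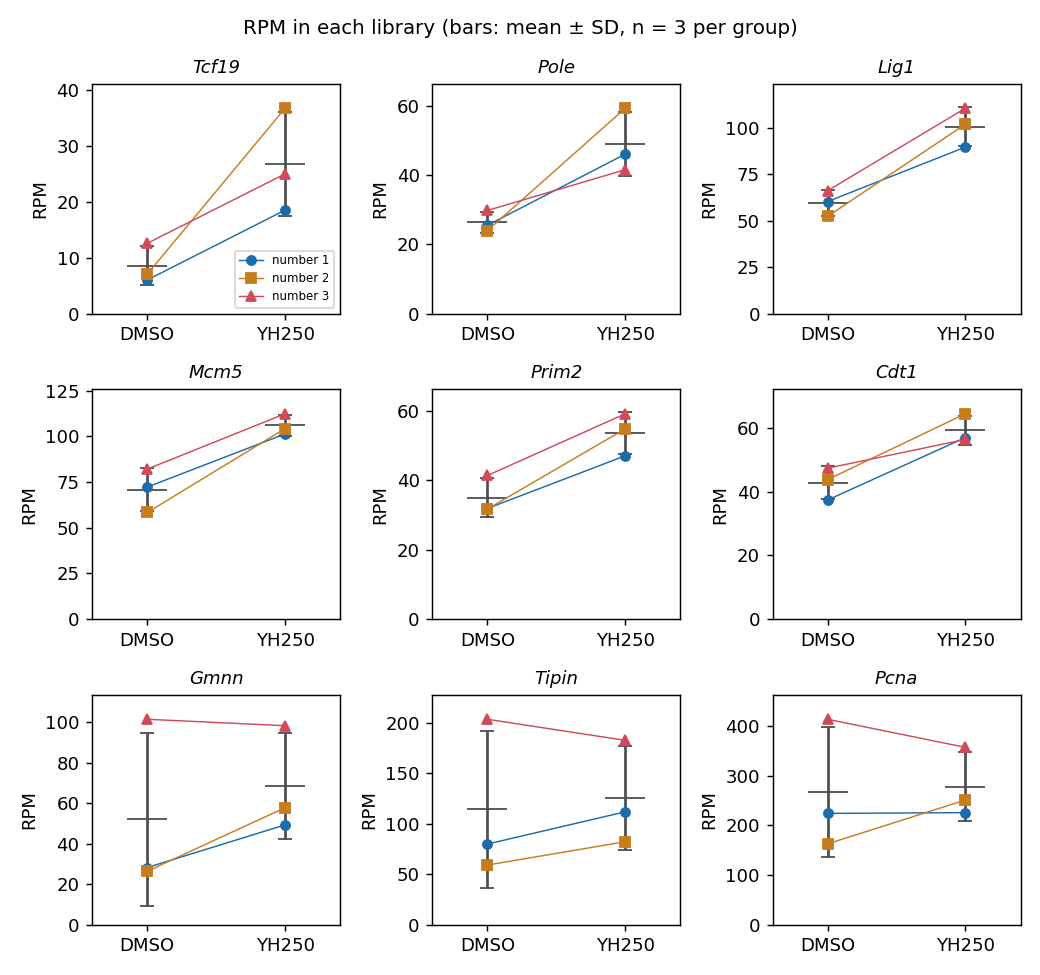
RPM in each library (y axis, from 0) for 9 genes in DMSO and YH250. Coloured lines join the libraries of the same number, and grey bars are mean ± SD of 3 libraries per group. In the upper 6 panels every YH250 library lies above every DMSO library, and in the lower 3 (Gmnn, Tipin, Pcna) the libraries numbered 3 stand above the others in both groups.

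Some of these genes differed between replicate numbers. In a limma fit with treatment as the other term, 5 genes were higher at number 3 than at number 1 (9.80%, against 5.60% of all genes): Gmnn (1.395 ± 0.30, adjusted p = 0.0202), Rpa3 (1.09 ± 0.25, adjusted p = 0.0273), Rfc4 (1.05 ± 0.27, adjusted p = 0.0414), Tipin (1.02 ± 0.23, adjusted p = 0.0249) and Slbp (0.88 ± 0.20, adjusted p = 0.026). Slbp binds the stem-loop of histone messenger RNAs. Chaf1b was lower (-0.91 ± 0.24, adjusted p = 0.0459), alone of the 51, against 2.96% of all genes. In either direction 6 genes passed between numbers 3 and 1 (11.8%), a share near the 8.56% of all genes. Between numbers 3 and 2, 5 genes were higher (9.80%, against 3.67% of all genes) and 0 lower (against 2.64%): Tipin (1.45, adjusted p = 0.00822), Gmnn (1.33, adjusted p = 0.0315), Pola1 (1.24, adjusted p = 0.0378), Dtl (1.20, adjusted p = 0.0412) and Pcna (0.92, adjusted p = 0.0438). Between numbers 2 and 1 none of the 51 passed, against 0.177% of all genes higher and 0.0221% lower. Gins1 had a large difference between numbers 3 and 1 that missed the threshold (1.43 ± 0.40, adjusted p = 0.0558).

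These counts depended on single libraries and on the scaling. Without DMSO 3 no member passed in either contrast with number 3, without DMSO 1 none passed between numbers 3 and 1, and without either DMSO 2 or YH250 2 that contrast gave 14 genes (27.5%). The count over all genes moved likewise, from 8.56% to 21.4% and 22.1% without those libraries, and to 3.07% without DMSO 3 and 3.37% without DMSO 1. The genes of a library summed to 70.0% of its scaling total in DMSO 1 and 77.9% in YH250 1. The sums were 75.6% in DMSO 2 and 84.9% in YH250 2, but 95.9% in DMSO 3 and 93.6% in YH250 3. Rescaling to a common gene total moved the median of all genes between numbers 3 and 1 from 0.04 to -0.28. Under it, 27 in place of 46 of the 51 genes were higher in number 3, and 2 passed (3.92%, against 10.1% of all genes), Gmnn higher and Chaf1b lower. Relative to all genes, the members' median was 0.32 before and 0.29 after. All genes called then split into 470 higher and 902 lower, in place of 761 and 403.

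The sum of squares of a gene's log2 values over the 6 libraries splits exactly into a share between treatments, a share between numbers and a rest. There are more replicate numbers than treatments, so the number share tends to be the larger even where neither has an effect. The members' shares are therefore set beside those of all genes. The treatment share was above the number share for 20 of the 51 genes (39.2%), against 18.5% of all genes; for the other 81.5% of all genes the number share was the larger. The median treatment share was 27.2% for the members and 10.3% for all genes, and the median number share 46.9% and 58.2%. Lig1 (89.2% between treatments, 6.84% between numbers), Pole (85.8% and 1.54%), Cdt1, Mcm5, Prim2, Tcf19 and Orc5 had the highest treatment shares, the last 5 between 75.6% and 80.1%. The highest number shares were those of Tipin (4.27% between treatments, 90.4% between numbers), Rpa3 (0.158% and 88.1%), Orc3, Orc6 and Timeless. For proliferation markers outside replication the treatment share was the larger in 2 of 15 (13.3%), near the share of all genes.

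**Figure D4:**
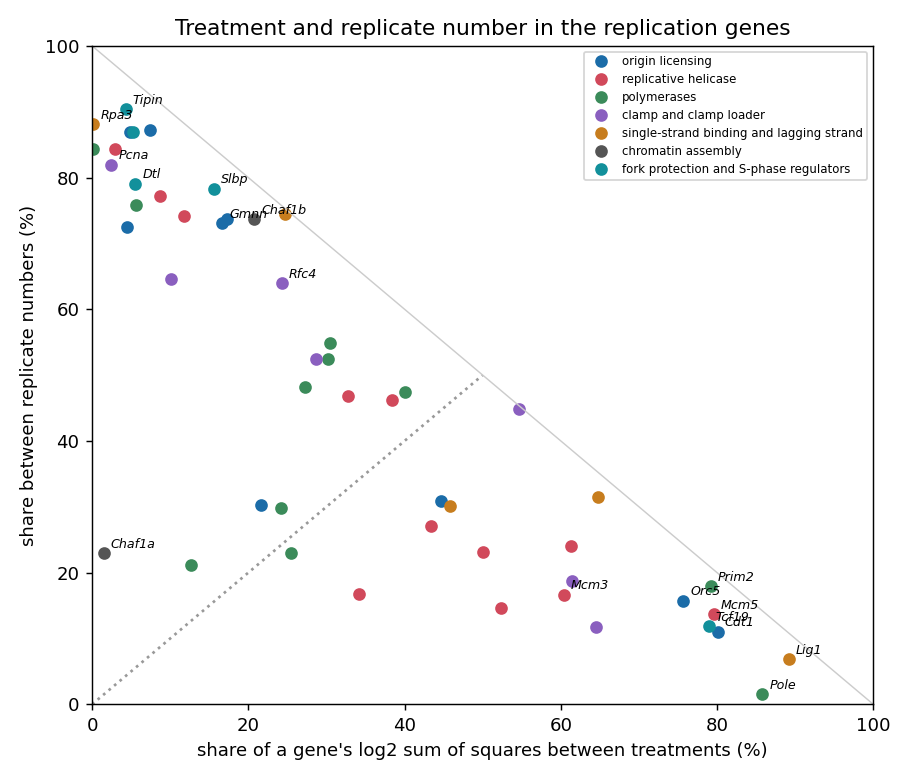
Share of each gene's log2 sum of squares between treatments (x axis, %) and between replicate numbers (y axis, %), 1 point per gene, coloured by role. Points on the grey line have no rest, and below the dotted line the treatment share is the larger, as it is for 20 of 51 genes. Replicate numbers outnumber treatments, which favours the number share. Lig1 and Pole lie at the lower right, and Tipin and Rpa3 at the upper left.

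Subunits of the same complex differed widely in level once values were divided by transcript length. On the scale of RPM per kb of the principal transcript, Orc6 was the highest and Orc1 the lowest of the 6 origin complex genes in all 6 libraries, with medians of 43.1 and 1.42. Of the ring genes Mcm6 was highest in all 6 libraries (63.6 to 112, median 78.6), followed in mean by Mcm3 and Mcm7, while Mcm2, Mcm4 and Mcm5 lay close together and changed places between libraries. Of the polymerase epsilon genes Pole4 was highest (median 66.4) and the catalytic gene Pole lowest (median 4.98) in all 6 libraries. The order Rpa3, Rpa2, Rpa1 likewise put Rpa3 highest (median 91.1) and Rpa1 lowest (median 10.9) in every library. Pcna was the highest of all 51 in every library (107 to 272.5, median 157). These levels rest on 1 transcript length per gene, and part of the order came with the division by it. Undivided, mean RPM over the 6 libraries was 71.1 for Rpa3, 72.5 for Rpa2 and 51.5 for Rpa1. Their transcripts have 670, 1813 and 5077 bases. Orc4 (73.3) and Orc3 (69.1) were then above Orc6 (60.2), and Pole2 (17.6) was below Pole (37.7). In undivided mean, Orc1, Mcm6, Pole4 and Pcna kept their places.

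Of 34 other replication genes, 27 were higher in mean after YH250 (79.4%, against 51.7% of all genes), with a median log2 difference of 0.26. With limma 0 passed. At an unadjusted p under 0.05 there were 0 without the block (against 0.934% of all genes higher) and 3 higher with it (8.82%, against 4.46%). The groups did not overlap for 2 of the 34, both higher, a share of 5.88% near the 3.79% of all genes. Rnaseh2a had 58.7, 45.8 and 45.0 RPM in DMSO, against 62.9, 61.6 and 58.7 RPM in YH250 (0.30 ± 0.22). Ssrp1, a subunit of the histone chaperone FACT, had 189, 170.1 and 176 RPM in DMSO, against 210.5, 224 and 191 RPM in YH250 (0.22 ± 0.20). In this wider list the treatment share was the larger in 5 of 34 genes (14.7%), near the 18.5% of all genes.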

How the data were processed

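The authors deposited 1 normalized signal per gene and library. Per the submitters' processing notes, CASAVA 1.8.2, TopHat2 2.0.8, Partek and mm10 were used, with no roles given. How strand and shared reads were treated, and which annotation was used, are points not given in the sources used here. In every library the lowest deposited signal was 1 and the excess over 1 fell on a common small step, so values were read as RPM plus 1, and 1 was subtracted. The step, taken as 1 read, was 0.0321 to 0.0455 RPM. Of low values (at most 20 reads), 61.0% to 68.5% were whole reads within 0.1, so no count model was used.

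The 13597 genes whose mean reached 1 RPM were tested on log2(RPM + 1), which understates changes of low genes, with limma 3.58.1 in R 4.3.3 (trend and robust), YH250 minus DMSO, and Benjamini-Hochberg adjustment over all of them. Number contrasts used treatment as a second term. Libraries of the same number deviated from their group means together (correlations of 0.551, 0.256 and 0.696), so counts with the replicate number as a block are given too; the labels do not say what the numbers pair. The p-values measure the spread between these libraries, which may be technical. Scripts were tested on simulated data. Symbols were matched by Ensembl ID (40254 of 41128 genes), and exons and lengths came from GENCODE M21 on GRCm38, promoters from RefSeq. The members and lists were chosen with earlier results of these data known. Named are members whose groups do not overlap, the highest and lowest difference of each role, the 6 largest differences between numbers 3 and 1, and Mcm2 to Mcm7, Pcna, Cdc6, Cdt1, Gmnn, Chaf1a and Chaf1b; the few others were named after their values were seen. Alternatives were other pseudocounts, minimum means, scalings, array weights, the block and left-out libraries. Of the lists of other cells whose sums are not in the report, B cell genes summed to 64.0 to 616 RPM in DMSO and 170.2 to 810 RPM in YH250, granulocyte and monocyte genes to 317 to 927 and 466 to 930 RPM, erythroid genes to 130 to 249 and 130 to 155 RPM, megakaryocyte genes (Gp6 at 0 throughout) to 36.7 to 101 and 15.6 to 122 RPM, and mast cell, basophil and eosinophil genes to 83.1 to 159 and 143 to 200 RPM.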

Additional observations from a re-analysis of the deposited data

How the results depend on the processing

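Between YH250 and DMSO no gene was called under any alternative, 41 to 51 members were higher in mean and their median stayed above 0. Rescaled to a common gene total, the members' median was 0.25 and that of all genes -0.07, with 48 members higher in mean. Members at an unadjusted p under 0.05 numbered 12 with array weights (2.09% of all genes were as low and higher in YH250), 16 with the replicate block (4.46%), 3 to 20 with 1 library left out (0.470% to 3.61%), and 2, 1 and 11 without both libraries numbered 1, 2 and 3 (0.452%, 0.330% and 2.19%). The block changed no call. Groups that did not overlap numbered 14 to 32 with 1 library left out (6.51% to 13.6% of all genes) and 33 without both numbered 3 (19.7%). Members called between numbers 3 and 1 were 0 with no minimum mean (0.652% of all genes called), 2 rescaled to a common gene total (10.1%), 3 after quantile normalization (9.58%), 12 with array weights (19.4%) and 0 to 14 with 1 library left out (3.07% to 22.1%). Between numbers 3 and 2 they were 0 with no minimum mean (0.152%), 8 at a minimum mean of 5 RPM (11%), 3 rescaled (7.90%), 3 with array weights (4.83%) and 0 to 9 with 1 library left out (1.84% to 23.0%); between numbers 2 and 1 the last gave 0 to 1 (0.288% to 12.9%). Counts over all genes thus moved too; the cause of these shifts was not tested. Of the 32 named members, 10 changed sign somewhere. Others kept their sign but moved widely with 1 library left out, Mcm10 from 0.069 to 0.92, Gmnn from 0.28 to 1.231, Rfc4 from 0.314 to 1.063, Mcm4 from 0.285 to 0.817, Cdc6 from 0.167 to 0.737, Chaf1b from 0.074 to 0.644, Gins4 from 0.353 to 0.763, Mcm2 from 0.097 to 0.402, Gins2 from 0.163 to 0.394 and Mcm6 from 0.244 to 0.549. Of those that changed sign, over the same settings, Chaf1a ranged from -0.21 to 0.444, Dscc1 from -0.607 to 0.113, Gins1 from -0.191 to 0.802, Gins3 from -0.037 to 0.389, Orc4 from -0.005 to 0.341, Pcna from -0.16 to 0.511, Pole3 from -0.153 to 0.357, Rpa3 from -0.276 to 0.461, Timeless from -0.097 to 0.358 and Tipin from -0.101 to 0.783. Rescaled and after quantile normalization, Pole3 was at -0.073 and -0.016 and Rpa3 at -0.055 and -0.001. Without both libraries numbered 1, Gins1 was at -0.111, Pole3 at -0.123 and Rpa3 at -0.113. Without both numbered 2, Dscc1 was at 0.015, Orc4 at -0.075, Pcna at -0.101 and Rpa3 at -0.041. Without both numbered 3, Chaf1a was at -0.463 and Pole3 at -0.035. With 3 libraries per group, the median SE of a member's log2 difference was 0.31, close to the members' median difference of 0.34.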

Other observations

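Of the 34 other replication genes, 3 were higher at number 3 than at number 1 (8.82%, near the 5.60% of all genes) and 8 were higher than at number 2 (23.5%, against 3.67%), while none passed between YH250 and DMSO. Pclaf, which encodes a partner of the Pcna clamp, had 42.7, 36.7 and 327 RPM in DMSO 1, 2 and 3 and 75.2, 121 and 316 RPM in YH250 1, 2 and 3. Its log2 difference between numbers 3 and 1 was 2.48 (limma, adjusted p = 0.00247), the largest of the 34. The histone chaperone Nasp had 72.1, 49.4 and 140.2 RPM and 78.7, 57.8 and 126 RPM (0.81, adjusted p = 0.0462). The histone acetyltransferase Hat1 had 66.2, 84.4 and 139 RPM and 113, 130.4 and 165 RPM (0.80, adjusted p = 0.0476), and was also higher in YH250 at each number.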
